A study of Mus musculus with 4 samples.

Results

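The 35 genes described here serve autophagy and the lysosome. They were listed by function, with earlier results of these data known. The list holds 14 genes of the autophagy core, 20 genes of the lysosomal lumen and membrane, and Tfeb, a transcription factor of lysosomal genes. Each gene was read at the probe set with the highest mean over the 4 arrays, among probe sets whose platform annotation names that gene alone. Of the 35 genes, 34 had such a probe set, 80 probe sets in all out of 45101 on the array. Cd63, a tetraspanin of late endosomes, had none in the annotation used here and has no value. Of the 34, 32 had a mean signal above the median of all probe sets, 113.9, and entered the test beside 12111 genes in all. Atg7 and Lgmn did not.

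The RNA came from Paneth cells, which sit at the bottom of the crypts of the small intestine and secrete antimicrobial granules. They were laser-captured in frozen gut sections of male NMRI mice aged 8 weeks. Mice of 1 group were germ-free until they were killed. Mice of the other group started germ-free and were conventionalized over 10 days with microbes taken from the intestine of an ordinary mouse. RNA of 3 mice was pooled per group and 2 aliquots of 10 ng per pool were amplified, each for 1 array, so the 2 arrays of a group are repeat amplifications of 1 pool. Errors and p-values below therefore hold amplification and array error and not the spread between mice, and the number of arrays limits the precision.

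Autophagy encloses cytoplasm in a double membrane that then fuses with the lysosome, where acid hydrolases digest the cargo. The Ulk1 kinase and the Becn1 lipid kinase complex start the membrane, the Atg12-Atg5-Atg16l1 complex with Atg7 and Atg3 attaches proteins of the LC3 and GABARAP family to its lipid, and Sqstm1 links cargo to them. In Paneth cells autophagy is known for its part in granule secretion: mice with little Atg16l1 have disordered Paneth granules, and a variant of the human gene is linked to Crohn's disease. TFEB drives many lysosomal genes by binding E-box elements near their starts.

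These elements were a feature that many members shared and that did not enter their choice. RefSeq promoter windows (GRCm38.p6), from 250 bases before to 50 after an annotated start, were found for 28 members. The others were Atg12, Atg16l1, Becn1, Ctsb, Ctsh, Map1lc3a and Npc1. The letters TCACGTG, which hold the E-box CACGTG, stood on either strand in the windows of 9 of the 28 genes (32.1%), against 4.29% of the 27025 genes of the table. By window the shares were 27.3% and 3.77%. The shorter CACGTG, which every such match contains, stood in 11 of 28 members (39.3%) and in 8.09% of all genes. Among lysosomal members 7 of 17 held the longer letters, and among the autophagy core 2 of 10. Of 130 other genes of the same pathways, 25 held them (19.2%).

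The stretches below show that element in its surroundings before the start of 6 members, read 5′ to 3′ along the gene's strand, with each CACGTG in capitals. Lamp1, a major glycoprotein of the lysosomal membrane, has 4 of them within 78 bases, on the + strand of chr8:13159083-13159160. Atg3, the enzyme that joins LC3 proteins to lipid, and Gla, alpha-galactosidase A, have 2 each in the stretches shown, at chr16:45158718-45158780 (+) and chrX:134601177-134601249 (-). The other 3 are Atg7, the activating enzyme of both conjugation steps, at chr6:114670947-114670986 (+), Ctsa, the protective protein cathepsin A, at chr2:164833744-164833772 (+), and Ctsd, the aspartic protease cathepsin D, at chr7:142387903-142387942 (-). Ctsa and Ctsd each hold a second match outside the stretch shown.
Lamp1: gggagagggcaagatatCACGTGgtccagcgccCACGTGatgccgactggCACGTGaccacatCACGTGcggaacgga
Atg3: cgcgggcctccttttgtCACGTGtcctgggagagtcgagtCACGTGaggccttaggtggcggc
Gla: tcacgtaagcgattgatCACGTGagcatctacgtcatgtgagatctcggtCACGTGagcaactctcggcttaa
Atg7: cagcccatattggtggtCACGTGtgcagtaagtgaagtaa
Ctsa: aacaatgagcaaactgtCACGTGatgcag
Ctsd: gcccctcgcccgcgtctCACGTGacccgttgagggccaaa

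**Figure D1:**
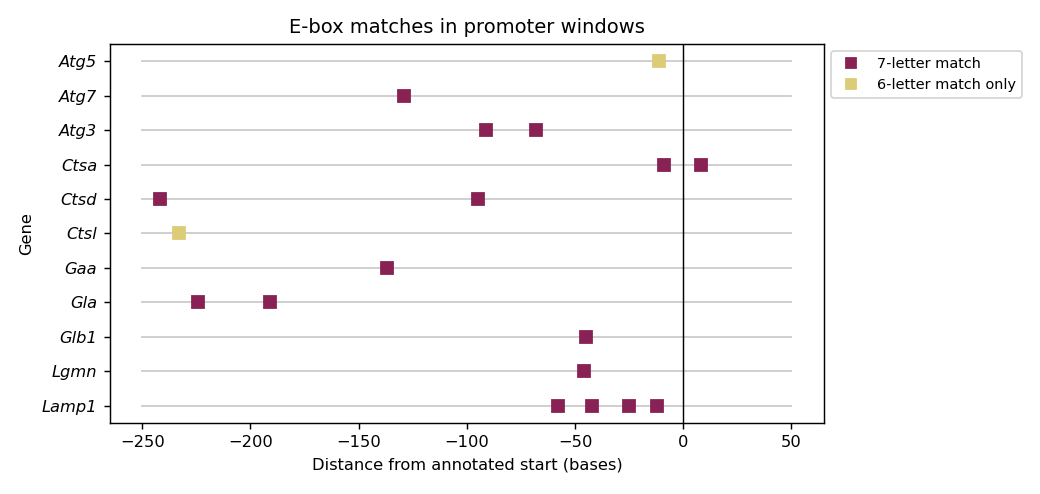
Position of each E-box match in the promoter windows of the 11 members that hold one; the horizontal axis is the distance in bases from the annotated start, each row is a gene, and the square's colour separates matches within TCACGTG from those of CACGTG alone. Lamp1 has 4 matches close before the start, whereas Atg5 and Ctsl have the shorter letters alone.

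Some facts about the arrays bear on these values. Signals are linear and were scaled by the authors, with a mean after trimming 2% from each end of 250 on every array. Duplicates, which are not independent replicates, correlated at 0.869 (germ-free) and 0.779 (conventionalized) across the 22491 probe sets tested. The closest pair crossed the groups, germ-free replicate 2 with conventionalized replicate 1 at 0.89. Germ-free replicate 1 with conventionalized replicate 1 gave 0.855. Conventionalized replicate 2 stood apart, at 0.754 to 0.779 with the other arrays. The fluidics station was 1 for the germ-free pair and 2 for the conventionalized pair, which means that its effect and that of the group cannot be told apart. Paneth markers were among the brightest signals: 10 of 14 had a probe set, and the median percentile of the 9 tested among all probe sets of an array was 99.2 to 99.7. Enterocyte markers (96.7 to 99.0) and goblet cell markers (98.0 to 98.8) were also bright. In such bulk samples, fewer cells of a type and less RNA per cell cannot be told apart.

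Colonization was compared by setting the 2 conventionalized arrays against the 2 germ-free ones. None of the 32 members tested was called higher or lower by limma at an adjusted p under 0.05, where 43 of 12111 genes (0.355%) were called. No member reached an unadjusted p under 0.05 either, against 5.94% of all genes. Under the alternatives Gabarapl2 did in 4, Tfeb in 2, and Atg3 and Gabarap in 1 each, and 3 of these did so without conventionalized replicate 1. None was called there, nor when conventionalized replicate 2, the array that stood apart, was left out. Among all 57 tested probe sets of the members none was called, where 75 of 22491 probe sets were (0.333%; 27 higher and 48 lower, or 3 and 18 with median centring), and 1 had an unadjusted p under 0.05. Differences are given on the scale log2(signal + 32), as conventionalized minus germ-free, on which a change in a dim probe set looks smaller than it is. On it the members ran from -1.45 to 0.65 with a median of -0.07, 15 above and 17 below 0, beside a median of 0.00 over all genes tested. The median size of the difference regardless of sign was 0.27 for members and 0.38 for all genes.

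A missed threshold does not show equal levels, so the interval of each difference matters. For 7 members the 95% interval lay between -1 and 1: Atg16l1, Map1lc3a, Map1lc3b, Ctsb, Ctsz, Hexa and Scarb2. For the other 25 it reached beyond. The number of such members depended on the estimate of spread: it was 0 without the variance trend, with median centring, with the aliquot number as a block and with any 1 array left out, and 6 to 14 under the other alternatives. Whether an interval stayed between -1 and 1 also depended on the probe set. Hexa had a single probe set, and each of the others had a further tested one whose interval reached beyond 1. For the second bright probe set of Map1lc3b it ran from 0.10 to 1.75. For dimmer ones it ran from -1.73 to 2.36 (Atg16l1), -0.62 to 2.2 (Map1lc3a) and -1.11 to 1.97 (Ctsb). It ran from -3.4 to 1.97 for Ctsz and from -0.98 to 1.29 for Scarb2. The distance from the estimate to either bound ran from 0.82 to 3.11, the latter for Gla. These intervals use a spread that limma took from probe sets of like signal, since 2 arrays per group give almost no information on a single probe set.

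**Figure D2:**
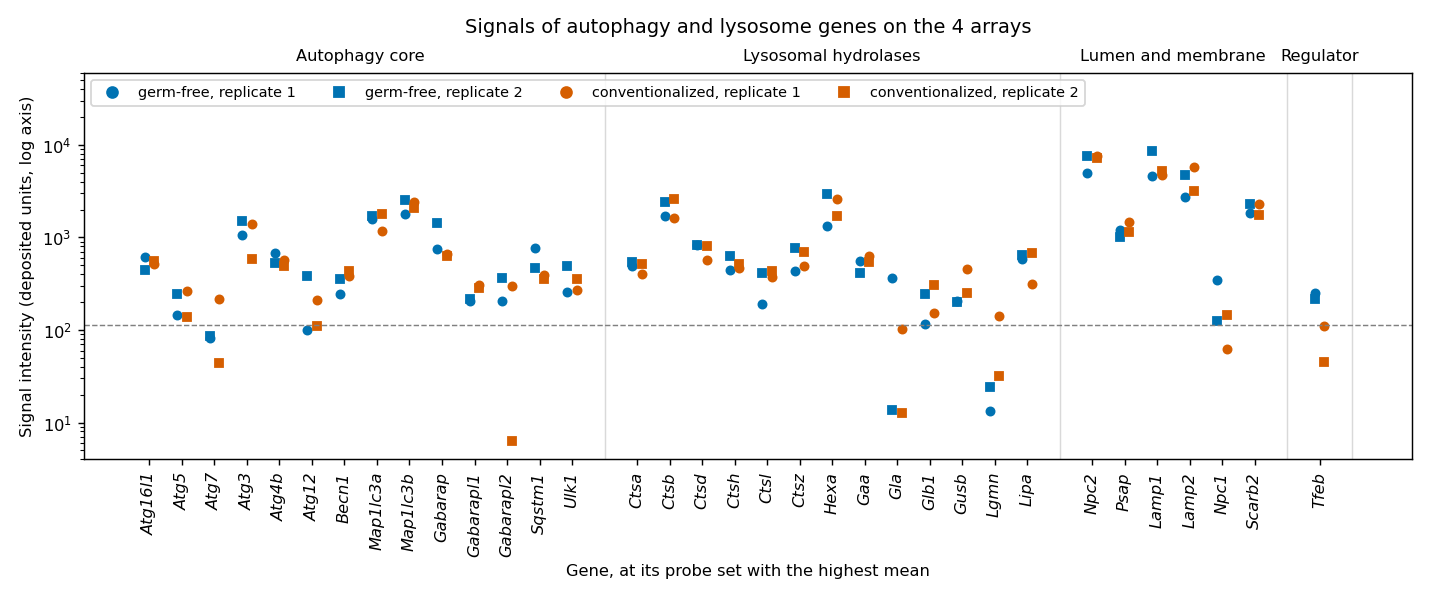
Signal intensity of each of 34 members (horizontal axis, by class) on a log axis in deposited units, with germ-free arrays in blue, conventionalized in orange, circles for replicate 1 and squares for replicate 2; the dashed line is the signal filter of 113.9. For most genes the blue and orange points interleave. Gabarapl2 has a single point far below its fellows, and Gla has a low replicate 2 point in both groups.

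Among the starters of autophagy, Ulk1, the kinase at the head of the pathway, read 259 and 489 on the germ-free and 270 and 353 on the conventionalized arrays, and the groups overlapped (log2 difference -0.19 ± 0.51, SE, 2 arrays per group). Becn1, the scaffold of the lipid kinase complex, read 242 and 356 against 380 and 433. Its groups did not overlap, yet the difference of 0.43 ± 0.51 was smaller than the gap of 0.50 between the germ-free duplicates.

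Members of the conjugation machinery gave no common direction. Atg16l1 (gene identifier 77040), which places the conjugating complex on the membrane, read 617 and 444 on the germ-free and 513 and 554 on the conventionalized arrays. Both conventionalized arrays lay between the germ-free ones, and the difference was 0.02 with a 95% interval from -0.87 to 0.92. Atg5, its partner, read 146 and 242 against 262 and 139, again 0.02, with a wider interval from -1.25 to 1.30. The other 2 Atg5 probe sets lay under the filter and were lower in the conventionalized pool, by -1.09 (197 and 135 against 78.6 and 43.8) and -0.72. Atg12, the ubiquitin-like protein joined to Atg5, read 100.1 and 380 against 209 and 111, so its germ-free duplicates were farther apart than the pools. Atg7 stayed under the filter at 81.0 and 85.8 against 215 and 44.2, with 4 probe sets between -0.02 and 1.31, and was not tested. Atg3 read 1054 and 1492 against 1384 and 583, with replicate 2 the low array of the conventionalized pair (-0.46 ± 0.42). Atg4b, the protease that trims LC3 proteins, differed by -0.16 ± 0.45.

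The LC3 and GABARAP proteins, which coat the new membrane, gave no common direction. Map1lc3b (LC3B) read 1807 and 2514 on the germ-free and 2395 and 2101 on the conventionalized arrays, a difference of 0.07 with a 95% interval from -0.76 to 0.90. A second bright probe set of Map1lc3b read 1386 and 1302 against 2201 and 3025. Both conventionalized arrays lay above both germ-free ones there, by 0.93 ± 0.42, and this was the single tested member probe set with an unadjusted p under 0.05 (limma adjusted p = 0.836). Map1lc3a read 1577 and 1700 against 1163 and 1797, with overlap (-0.18 ± 0.42). Its other probe set, dimmer, differed by 0.79 ± 0.72 without overlap.

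Of the other branch, Gabarap read 752 and 1421 on the germ-free and 656 and 625 on the conventionalized arrays. The groups did not overlap, and the difference was -0.67 ± 0.43, smaller than the gap of 0.89 between the germ-free duplicates. Its relative Gabarapl1 read 207 and 218 against 305 and 283, the reverse order, again without overlap. Gabarapl1 had tight duplicates, 0.07 and -0.10 apart, and differed by 0.41 ± 0.57. Gabarapl2 read 204 and 367 against 295 and 6.3. That last value, on conventionalized replicate 2, set the largest difference of all members, -1.45 ± 0.76 (limma adjusted p = 0.995), which was 0.10 without that array and -3.00 without the other conventionalized array. A second Gabarapl2 probe set also read lowest on conventionalized replicate 2, at 188 and 313 against 269 and 78.7. Sqstm1 (p62), the cargo receptor that autophagy itself degrades, read 763 and 471 against 393 and 355. Both conventionalized arrays lay below both germ-free ones, by -0.64 ± 0.47 (95% interval -1.56 to 0.27). Its second probe set, dim and not tested, read 190 and 29.2 against 4.5 and 11.1.

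Cathepsins, the lysosomal proteases, differed by -0.28 to 0.47 between the pools at their probe sets with the highest mean. Ctsd (gene identifier 13033) read 829 and 834 on the germ-free and 574 and 802 on the conventionalized arrays, a difference of -0.28 ± 0.43. Its groups did not overlap by a margin that was small beside the conventionalized gap of 0.46. Ctsb read 1695 and 2414 against 1606 and 2577, and the pools differed by 0.01 with an interval from -0.82 to 0.83. The other cathepsins were Ctsl (0.47 ± 0.51), Ctsz (0.03 ± 0.45), Ctsh (-0.10 ± 0.46) and the carboxypeptidase Ctsa (-0.19 ± 0.46), each with overlapping groups. Further tested probe sets gave 0.64 for Ctsa and -0.77 for Ctsh, both without overlap. With overlap they gave 0.52 and -0.71 for Ctsz and -0.16 and 0.43 for Ctsb. Lgmn, the asparaginyl protease that processes cathepsins, read 13.3 and 24.5 against 142 and 31.6, under the filter and untested.

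The hydrolases of sugars and lipids included 1 member without overlap. Gusb, beta-glucuronidase, read 208 and 199 on the germ-free and 453 and 249 on the conventionalized arrays, 0.65 ± 0.55, the highest difference of the tested members, with conventionalized replicate 1 the brightest array. Hexa, the alpha subunit of beta-hexosaminidase, read 1315 and 2947 against 2633 and 1683, and the germ-free duplicates were 1.15 apart where the pools differed by 0.09. Gaa, the acid glucosidase of glycogen, differed by 0.26 ± 0.46, Glb1, beta-galactosidase, by 0.29 ± 0.65, and Lipa, the acid lipase of cholesteryl esters, by -0.38 ± 0.46. Gla read 360 and 13.7 against 102 and 12.7. It passed the filter through a single germ-free array, and its difference of -0.79 ± 1.59 carries the widest interval of the members.

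Membrane and lumen proteins without hydrolase activity gave the highest signals. Npc2, the soluble lysosomal cholesterol carrier, read 4941 and 7677 on the germ-free and 7513 and 7272 on the conventionalized arrays (0.26 ± 0.52). Lamp1 read 4596 and 8555 against 4758 and 5198. Both conventionalized arrays lay within the range of the germ-free ones (-0.33 ± 0.49). Lamp2, its relative that also serves chaperone-mediated autophagy, read 2722 and 4779 against 5748 and 3155 (0.24 ± 0.46), and all 4 of its probe sets lay between 0.21 and 0.57. Psap, the precursor of the saposin activators, differed by 0.23 ± 0.42 and Scarb2, the receptor that carries glucocerebrosidase to lysosomes, by -0.04 ± 0.42. Npc1, the membrane partner of Npc2 in cholesterol export, read 351 and 126 against 61.8 and 147 (-0.93 ± 0.79), and its duplicates were 1.28 and 0.93 apart. Its conventionalized mean of 104 lay below 113.9, so Npc1 passed the filter only through the germ-free pool.

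Tfeb (gene identifier 21425) was the sole tested member that both differed by at least 1 on the log2 scale and kept its groups apart, a property of 8.88% of all genes. It read 250 and 218 on the germ-free and 110 and 45.3 on the conventionalized arrays. Both conventionalized values were below 113.9, the filter set on the mean, and both germ-free values above it. The difference was -1.34 ± 0.85, with a 95% interval from -3.00 to 0.31, and was not called (limma adjusted p = 0.999). Its size moved with the pseudocount, from -1.61 with the smallest tried to -0.83 with the largest. Tfeb and Gabarapl1 were also the 2 of 32 members (6.25%) whose difference exceeded the gap within both duplicate pairs, against 19.5% of all genes.

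**Figure D3:**
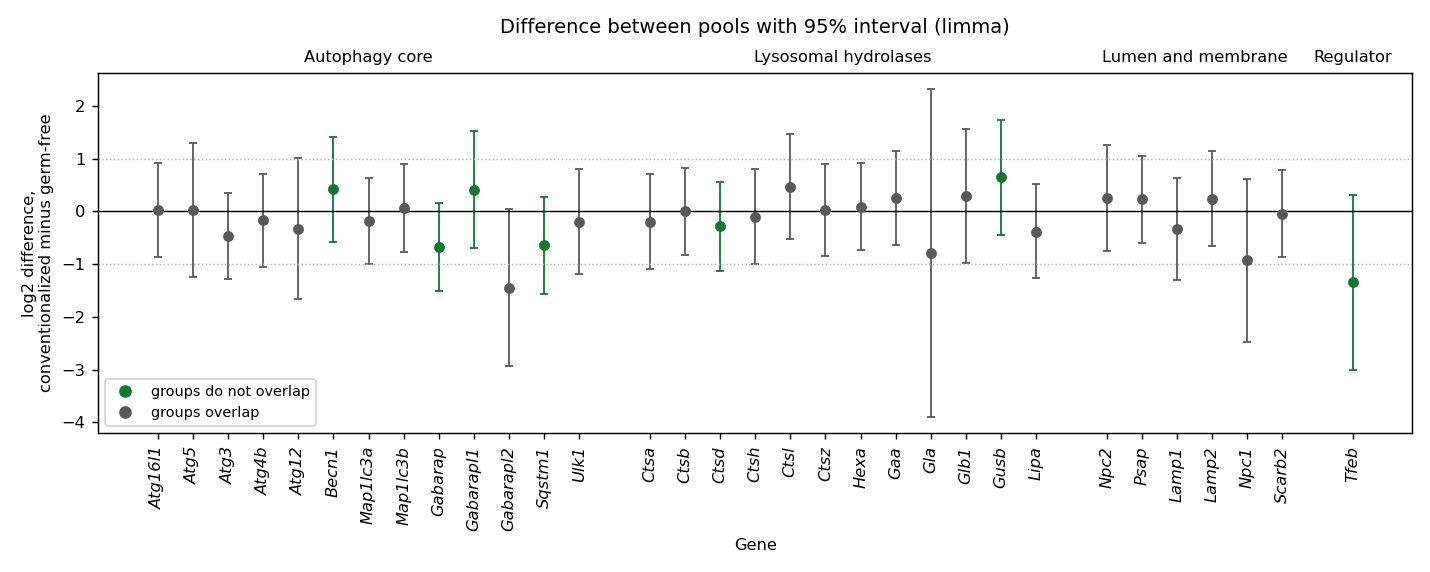
log2 difference, conventionalized minus germ-free, of the 32 tested members (horizontal axis, by class) with 95% intervals from limma as bars; green marks the 7 members whose groups do not overlap, grey the rest, and dotted lines stand at -1 and 1. The Tfeb interval runs from -3.00 to 0.31, and every interval drawn includes 0.

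In all, groups did not overlap for 7 of 32 members (21.9%), 3 higher (Becn1, Gabarapl1, Gusb) and 4 lower (Gabarap, Sqstm1, Ctsd, Tfeb), against 32% of all genes. By class this held for 4 of 13 autophagy core genes, 2 of 18 lysosomal genes and Tfeb.

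The autophagy core and the lysosomal genes were then set side by side. The median difference was -0.18 over 13 autophagy core genes, 5 of them above 0, and 0.02 over 18 lysosomal genes, 10 of them above 0. With the untested members added the medians were -0.17 and 0.03. Neither sign held throughout. The autophagy median was 0.05 without conventionalized replicate 2, and the lysosomal one was -0.08 there and -0.22 when germ-free replicate 1 was left out. Hydrolases alone had a median of 0.02 (12 genes) and the lumen and membrane proteins 0.10 (6 genes).

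In signal, the 13 autophagy core genes had a median of 617 and 471 on the germ-free and 393 and 433 on the conventionalized arrays. The 18 lysosomal genes had medians of 567 and 703, then 535 and 683. Placed among all probe sets of the same array, the autophagy median stood at percentiles 89.4 and 85.7 and then 83.4 and 84.3, the lysosomal one at 88.3 and 89.9 and then 87.4 and 90.9. The log2 gap between the classes was -0.11 on germ-free replicate 1 and 0.54, 0.41 and 0.62 on the other arrays, so their order turned on 1 array. The median percentile of the 6 lumen and membrane proteins was 97.2 to 97.5 on all 4 arrays and that of the 12 hydrolases 85.3 to 88.2. Single genes lay far from these medians, such as Npc1 at 37.6 to 79.3. A probe set's signal also depends on its probes, so these medians describe how brightly the classes were read and rank no gene's RNA above another's.

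Probe sets of the same gene often disagreed. Of 17 members with 2 or more tested probe sets, 11 (64.7%) had differences of both signs, beside 53.7% of 4392 such genes on the array, and the median range within a gene was 0.67 for members and 0.65 for all. Becn1 showed it most plainly. The 2 brightest of its probe sets differed by 0.43 and 0.37, while the third read 185 and 379 on the germ-free and 99.0 and 125 on the conventionalized arrays, a difference of -1.06 without overlap. Ulk1 gave -0.19 and 1.02. With all tested probe sets of a gene averaged, the autophagy median was 0.02.

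**Figure D4:**
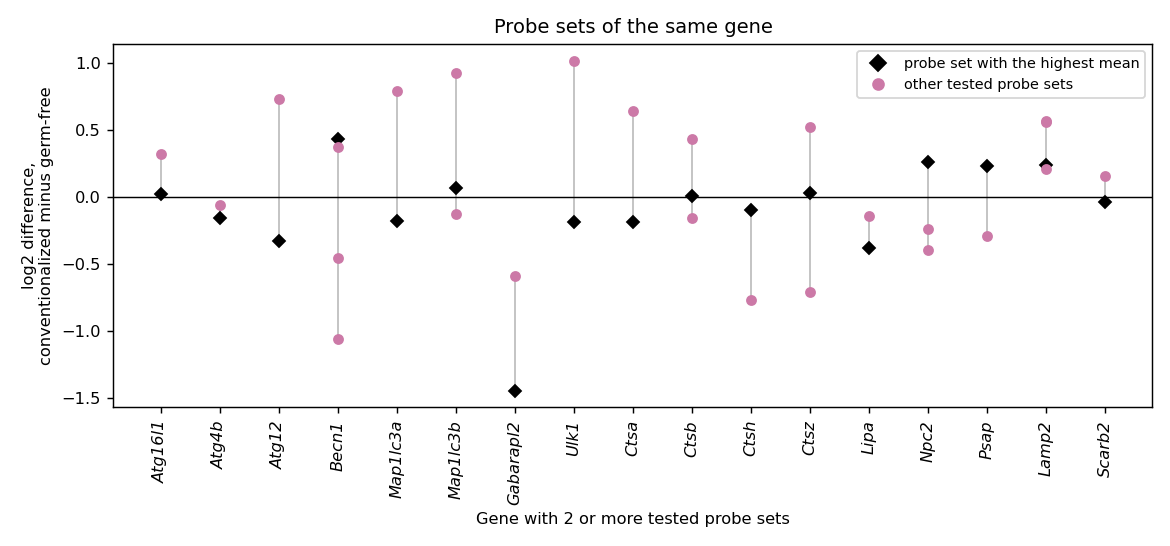
log2 difference, conventionalized minus germ-free, of every tested probe set of the 17 members with 2 or more (horizontal axis: gene); black diamonds are the probe sets with the highest mean, pink circles the others, and grey lines join probe sets of a gene. Points of 11 genes fall on both sides of 0, whereas those of Lamp2 all lie above it.

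The presence of the E-box was set beside the differences. Of the 9 members with TCACGTG, 7 were tested. They ran from -0.79 to 0.29 with a median of -0.28, and 5 were below 0. The 18 tested members with a window but without these letters ran from -1.45 to 0.65 with a median of 0.02. No member of either group was called.

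Other genes of the same pathways held no call either. Of 170 listed, 158 had a probe set and 137 were tested, and limma called none in either direction, with 6 at an unadjusted p under 0.05, where 5.94% of all genes were. Groups did not overlap for 52 (38.0%), 22 higher and 30 lower, beside 32% of all genes. The median differences were -0.13 for 33 other autophagy genes, 0.06 for 29 genes listed as other hydrolases and -0.07 for 22 other membrane proteins. That hydrolase list also holds Hgsnat, an acetyltransferase, and Gm2a, an activator protein. The medians were -0.13 for 18 subunits of the V-ATPase, the proton pump of lysosomes, 0.08 for 19 genes of lysosomal sorting and fusion, and -0.28 for 16 genes around the kinase mTOR and the TFE factors.

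The widest separations in each list, by the rule given under processing, ran in both directions. Rubcn (Rubicon), an inhibitor of autophagosome maturation, read 364 and 212 on the germ-free and 29.9 and 15.8 on the conventionalized arrays (-2.51 ± 1.14, limma adjusted p = 0.836). Ambra1, an activator of the Becn1 complex, read 47.4 and 71.2 against 188 and 259 (1.48 ± 0.94). Flcn (folliculin), which acts with the Rag GTPases to hold TFEB in the cytoplasm, read 1010 and 942 against 512 and 358, a tight pair of groups (-1.13 ± 0.44, limma adjusted p = 0.576). Rptor, the mTOR complex scaffold, read 130 and 264 against 323 and 514 (1.01 ± 0.54).

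Of the remaining lists, Hgsnat, a lysosomal acetyltransferase of heparan sulfate, read 315 and 316 on the germ-free and 109 and 45.4 on the conventionalized arrays (-1.73 ± 0.74). Nagpa, which uncovers the mannose 6-phosphate tag on lysosomal enzymes, read 75.6 and 115 against 312 and 354 (1.53 ± 0.67). Atp6v1c2, a V-ATPase subunit, differed by 1.44 ± 1.05 and Atp6v0e2 by -0.88 ± 0.52. Vps18, of the tethering complexes for lysosomal fusion, differed by 1.11 ± 0.93, Acp2, lysosomal acid phosphatase, by -0.99 ± 0.59, the metal transporter Slc11a2 by -0.94 ± 0.62 and the amino acid transporter Slc36a1 by 0.80 ± 0.68. None of these 12 was called. For Rubcn and Hgsnat the conventionalized mean, and for Ambra1, Nagpa, Vps18 and Atp6v1c2 the germ-free mean, lay below 113.9, so these 6 passed the filter only through the pool where they were bright.

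**Figure D5:**
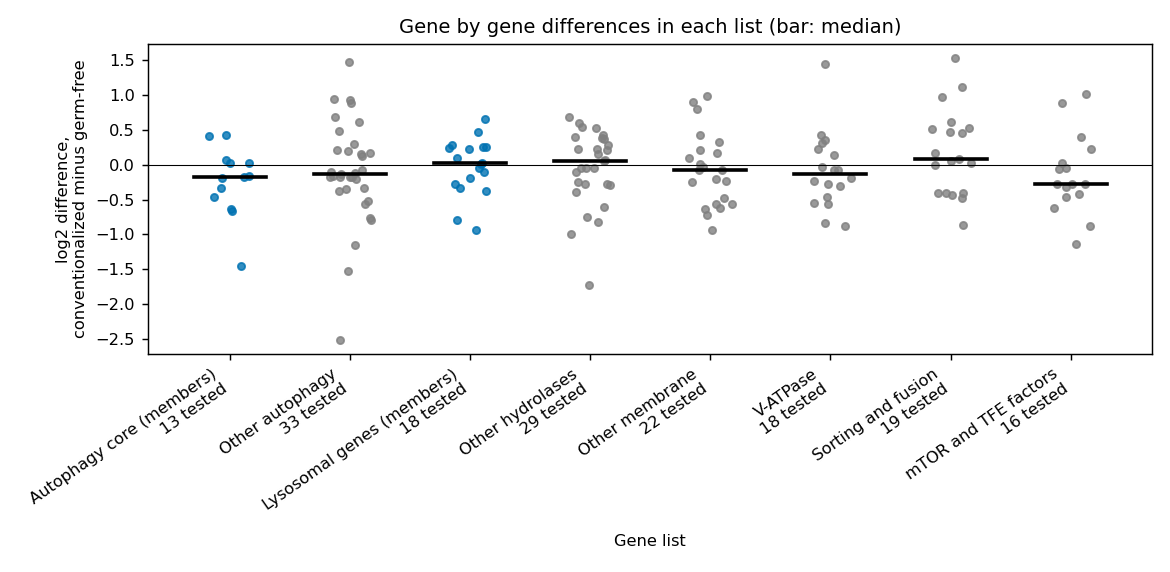
log2 difference, conventionalized minus germ-free, of each tested gene (points) in the member classes (blue) and in 6 further lists of the same pathways (grey), with the median as a black bar; points are spread sideways for legibility. List medians lie between -0.28 and 0.08 in all 8 columns, and single genes reach -2.51 and 1.53.

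Markers of other cells were read beside these genes. Macrophages are rich in lysosomes, and of 14 macrophage markers, all with a probe set and none at 0, 7 of 9 tested were above 0 and none was called. Their summed signal was 10477 to 10711 on the germ-free and 18891 to 23906 on the conventionalized arrays. Most of it on each array came from Lyz2, which read 5627 and 6963 against 15930 and 14914, so the sum mainly follows that gene. The next brightest, Csf1r, read 1933 and 1727 against 2719 and 1772, with overlap. Groups did not overlap for 3 of the 9 tested (33.3%), 2 higher and 1 lower, beside 32% of all genes. Cd68, a lysosomal membrane protein of macrophages, read 69.2 and 54.6 against 112 and 177 and was not tested. The 2 tested macrophage markers below 0 were C1qb (-0.34) and Tyrobp (-0.22). Of the untested ones C1qa (-0.67) and C1qc (-0.23) were lower, and Cd68 (0.89), Cd163 (0.74) and Itgam (0.11) higher. The summed Paneth markers read 66992 and 149100 against 285530 and 646269, and none of the 10 with a probe set was at 0. On conventionalized replicate 2 lysozyme (Lyz1) and the defensin Defa31 gave most of that sum, at 249594 and 245509. All 9 Paneth markers tested were above 0, and Mptx1 was called higher (2.74). Of 13 enterocyte markers, 10 were below 0, with Apoc3, an apolipoprotein, called lower (-2.16), and 3 above, Fabp2 (1.47), Rbp2 (1.23) and Apoa4 (0.59). The summed enterocyte markers read 94833 and 175704 against 109811 and 256428. Of 10 goblet cell markers 7 were above 0, with Retnlb called higher (3.53), and 3 below, Clca1 (-1.29), Atoh1 (-0.54) and Muc2 (-0.34). Of 5 plasma and B cell markers tested 3 were above 0, with Igha called higher (2.44), and 2 below, Ms4a1 (-1.58) and Sdc1 (-0.18). Below 0 lay 8 of 10 enteroendocrine, 4 of 6 stem cell and 6 of 9 stromal markers tested, none of them called. The part of these cell types in the members' values was not tested.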

How the data were processed

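The authors deposited 1 signal intensity per probe set and array, already scaled by them. The software behind it is not given in the sources used here, and per the file headers the arrays were of the Mouse430_2 type, of 1 lot, hybridized and scanned on 1 day. Symbols came from the platform annotation, in which 34958 probe sets named 1 gene, 932 several and 9211 none, checked against a mouse gene table (GRCm38.p6). The deposited intensities were turned into log2(intensity + 32). Control probe sets (64) and probe sets with a mean not above 113.9 were left out. The rest were fitted with limma 3.58.1 in R 4.3.3 (lmFit, eBayes with a variance trend), with Benjamini-Hochberg adjustment over all 22491, and the script was checked on simulated data. Prior degrees of freedom were infinite beside 2 residual ones. A permutation of the 4 arrays cannot go below p = 0.333. Members, lists and tests were chosen with earlier results of these data known. Values per array were given for members called or apart by at least 1, the 3 brightest of each class, Atg16l1, Atg5, Atg7, Map1lc3b, Sqstm1, Lamp1, Ctsd and Tfeb. In each other list they were due for called genes and for up to 2 genes with the largest difference without overlap. Further members were given in full after their values were seen. Alternatives were a smaller and a larger pseudocount, filters, scalings, no trend, replicate blocks, leaving out each array, and averaging probe sets.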

Additional observations from a re-analysis of the deposited data

How the results depend on the processing

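No member was called under any alternative run, and the lowest limma adjusted p was 0.106, for Gabarapl2 without conventionalized replicate 1. Gabarap, Gabarapl1, Sqstm1, Ctsd, Gaa, Gusb, Npc1 and Tfeb kept their sign in every alternative that included them. The other 24 tested members changed it at least once. Each of these 8 had a single tested probe set, so averaging probe sets could not turn its sign. For all but Gaa and Npc1 the groups did not overlap, so leaving out 1 array could not turn it either. Over all probe sets, 27 higher and 48 lower calls became 14 and 19 with quantile normalization, 3 and 18 with median centring, and 0 and 0 without the variance trend, where 975 had an unadjusted p under 0.05. The replicate block, with the aliquot number as a factor, gave 13 and 17. Same-numbered arrays deviated with a correlation of -0.132, and the crossed pairing as a replicate block, chosen after seeing the data, gave 71 and 157. Neither block called a member. With 1 array left out, calls ran from 14 to 34 higher and from 7 to 181 lower, the autophagy core median from -0.29 to 0.05 and the lysosomal median from -0.22 to 0.13. Other pathway genes gave 0 to 1 call in each direction there. Laptm5 differed by 2.37 with germ-free replicate 1 left out and by 2.55 with conventionalized replicate 2 left out, against 0.99 with all arrays. It read 1337 and 170 on the germ-free and 3043 and 324 on the conventionalized arrays, so replicate 1 was the brighter in both groups. Rb1cc1 differed by -3.14 with conventionalized replicate 1 left out, against -1.52 with all arrays. It read 540 and 357.5 against 472 and 21.4, so its difference rested on conventionalized replicate 2. With probe sets of a gene averaged, the autophagy core median was 0.02. The cause of these shifts was not tested. Duplicate amplifications of single pools limit every value, and most intervals allow changes of 2-fold.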
